A study of Sus scrofa with 11 samples.

Results

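The 200 most abundant long non-coding RNA (lncRNA) genes of day 10 pig skin wounds are described here. Members were chosen by level: the 5605 genes with the biotype lncRNA were ranked by their median FPKM (reads scaled by gene length and library size) over the 11 wounds, and the first 200 were kept. The levels that follow therefore describe the choice and are not a finding. Members ranked 199 and 200, LOC110259927 and LOC110261305, had median levels of 1.61 and 1.61 FPKM, and the next 2 genes outside the list, LOC100512907 and LOC102160006, had 1.603 and 1.5997 FPKM. Of all 5605 lncRNA genes, 3122 had a median of 0 and 550 a median of at least 0.5 FPKM.

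The wounds were full-thickness excisions on the back of 2 female Yucatan minipigs, taken on day 10. In 1 minipig diabetes was induced with intravenous streptozotocin, a toxin of the insulin-producing beta cells, and insulin was withdrawn before wounding. It gave 7 wounds, and the untreated non-diabetic minipig gave 4. Each library held polyadenylated RNA of 1 wound. Because every wound of a group came from 1 animal, diabetes and animal cannot be told apart, and the p-values measure the spread between wounds. Fewer cells of a type and less RNA per cell cannot be told apart in tissue RNA either.

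Long non-coding RNAs are transcripts longer than small RNAs that have no annotated protein product. Some scaffold nuclear bodies or recruit chromatin regulators, some act on the gene next to them or are a by-product of its promoter, and some are the precursors from whose introns microRNAs are cut. The label is assigned by annotation pipelines, and a gene can carry it because its models lack an accepted reading frame in the assembly.

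That last point bears on many of the members. All 200 have the same coordinates in NCBI's RefSeq annotation of Sscrofa11.1, and none has a coding sequence there. Still, 49 carry a product name of a known protein, 35 are uncharacterized loci whose deposited description names a matching protein, and 116 are uncharacterized without such a match. Among the other 5405 lncRNA genes these classes held 20, 611 and 4774. The longest reading frame from a start codon to a stop, over the annotated transcripts of a gene, had a median of 349 codons in members named for a protein, 82 in those with a match and 74 in those without. It reached at least 200 codons in 34 of the 49 named members, 1 of the 35 and 3 of the 116. GSN, the actin-severing protein gelsolin, held a frame of 780 codons, HNRNPU, a nuclear matrix RNA-binding protein, 825, and EIF3B, a subunit of a translation initiation factor, 784. These members are therefore called by their symbol here and not described as non-coding RNAs. Only the annotation and the letters of the transcripts were read, and no protein was measured.

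**Figure D1:**
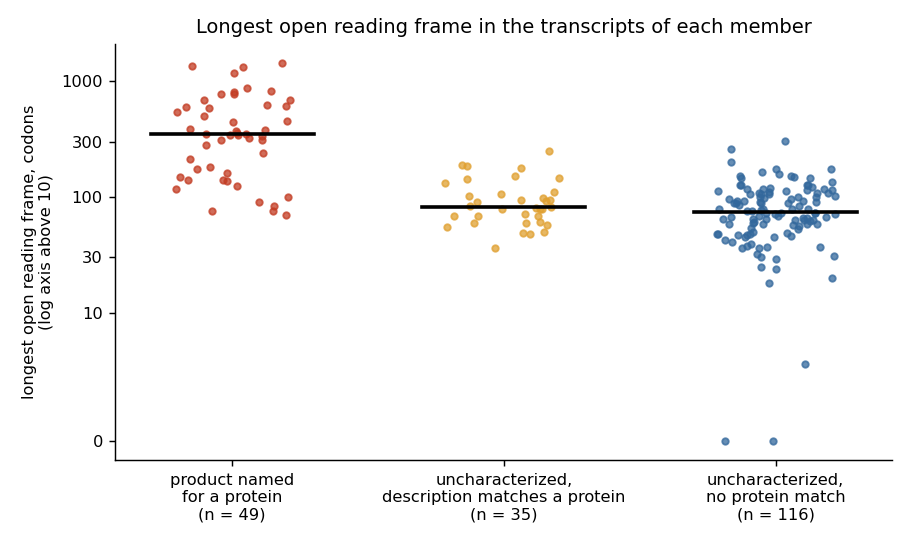
Longest open reading frame in codons (log axis above 10) for each of the 200 members, one point per gene, by annotation class, with the class median as a bar. Members named for a protein centre on 349 codons, against 82 and 74 in the uncharacterized classes.

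Of 115 names of well-known lncRNAs looked for, MEG3 alone was present as a lncRNA symbol in the file, at a level below the list. The uncharacterized members carry locus numbers and are given by number and position.

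Between 28314785 and 40168372 reads per wound fell on genes. Skin origin was checked with keratinocyte markers: KRT5, the basal keratin, averaged 1536 FPKM in diabetic wounds and 1005 FPKM in the non-diabetic group. Diabetic replicate 4 and non-diabetic replicate 1 stood apart from the other 9 wounds on the first principal component, which held 44.5% of the variance. The summed level of 22 keratinocyte markers was 92.1 FPKM in the first and 401 FPKM in the second, and at least 2585 FPKM in every other wound. Results that rest on this pair of wounds are given with and without them.

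The list is steep at its top. Only 5 members had a median of at least 100 FPKM, 26 reached 20 FPKM and 57 reached 10 FPKM, with a median over the list of 3.93 FPKM. The 200 members carried 80.3 to 83.6% of the summed lncRNA FPKM in diabetic wounds and 77.6 to 80.8% in non-diabetic wounds, while all lncRNA genes together made up 0.762 to 0.914% of the summed FPKM of a wound. The 49 members named for a protein gave 30.5 to 41.5% of the members' sum. Among the 20 most abundant members, 9 were named for a protein, 2 had a match and 9 had none.

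**Figure D2:**
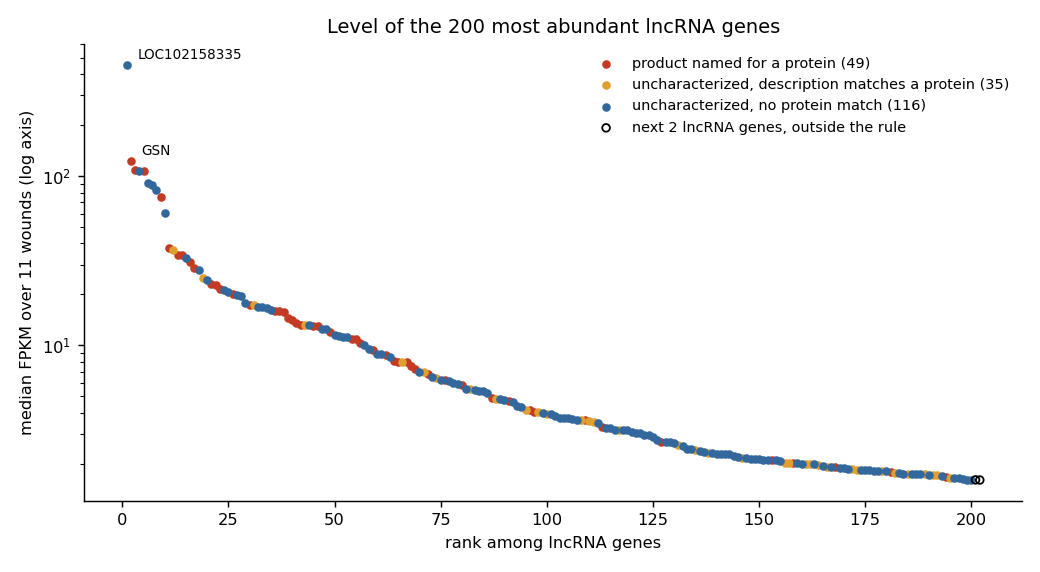
Median FPKM over the 11 wounds (log axis) against rank for the 200 members, coloured by annotation class, with the next 2 lncRNA genes as open circles. LOC102158335 stands at 455 FPKM, GSN follows at 123 FPKM, and the curve ends at 1.61 FPKM.

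LOC102158335, an uncharacterized gene on an unplaced scaffold with no protein-coding gene beside it, had the highest level of any lncRNA gene. It ranged from 344 through a median of 455 to 633 FPKM in diabetic wounds and stood at 555, 461, 431 and 397 FPKM in non-diabetic wounds. The groups overlapped widely, with a log2 fold change of -0.04 on the log2(FPKM + 0.5) scale and an adjusted p of 0.939. It alone gave 12.5 to 20.5% of the members' summed FPKM.

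GSN ran from 62.6 through 123 to 157 FPKM in diabetic wounds, against 169, 138, 105 and 84.4 FPKM in non-diabetic wounds. SEM1, a small proteasome subunit, lay between 88.1 and 127 FPKM in all wounds, and LOC100521518, whose start lies 14 bp from CCDC51, between 91.0 and 122 FPKM. CD99, a leukocyte surface glycoprotein that in humans lies in the region shared by X and Y, is placed on chromosome Y in the annotation and was read at 69.4 to 161 FPKM in these females. None of these 4 passed the test. LOC100513133 (chr2:6803590-6811708), a gene of 2 exons and 7928 bases whose nearest coding gene is FRMD8, ran from 58.4 through 84.7 to 135 FPKM in diabetic wounds and was 116, 142, 88.8 and 109.6 FPKM in non-diabetic wounds, with overlapping groups and a difference of -0.36 on the log2 scale (adjusted p = 0.362).

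LOC100624113, which overlaps the heat shock gene HSPA1L on the other strand, ran from 77.5 through 97.7 to 126 FPKM in diabetic wounds and was 82.4, 82.4, 70.2 and 66.1 FPKM in non-diabetic wounds. The fit gave a log2 fold change of 0.39 and an adjusted p of 0.117. HSPA1L itself averaged 0.199 and 0.320 FPKM, far under the lncRNA gene that overlaps it. EIF4B, a helper of the translation helicase, lay at 67.8 to 84.5 FPKM. Of the 20 most abundant members, LOC100525935 alone had an adjusted p under 0.05. It ran from 60.3 through 62.8 to 73.7 FPKM in diabetic wounds and was 41.3, 54.4, 41.7 and 47.4 FPKM in non-diabetic wounds, so that every diabetic wound was higher. Its log2 fold change of 0.48 ± 0.09 (SE) stayed under the size needed for a call (adjusted p = 0.0180, exact permutation p = 0.00303). The adjusted p was 0.0858 without the pair of wounds that stood apart.

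A further 7 of the first 20 members were not called either. LOC100512700, which overlaps FAM69B on the other strand, ran from 29.9 to 49.5 FPKM in diabetic and from 26.01 to 32.4 FPKM in non-diabetic wounds, at 0.39 on the log2 scale (adjusted p = 0.163). B4GALT4, a galactosyltransferase, ran from 20.9 to 36.7 FPKM in diabetic and from 29.0 to 38.1 FPKM in non-diabetic wounds, at -0.38 (adjusted p = 0.202). In both the groups overlapped. The log2 fold changes were 0.17 for MARVELD1, 0.19 for the proteasome maturation factor POMP, -0.09 for LOC110257452, 0.09 for LOC100519283 and 0.25 for LOC100621455. None of the tested neighbours of the first 20 members was called, among them STOM beside GSN at 0.15, TNS2 beside EIF4B at 0.07, PRSS12 beside LOC100525935 at 0.23 and PHACTR4 beside LOC100621455 at -0.29.

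The comparison of diabetic with non-diabetic wounds asks which transcripts differ between poorly controlled diabetes and normal healing. A call needed an adjusted p below 0.05 and a log2 fold change above 0.5 in size. Of the 200 members, all of which passed the filter on low values, 5 were called higher in diabetic wounds and 3 lower. Over all 13956 genes tested, 3.00% were called, 1.35% higher and 1.66% lower, so the members' 8 calls lie near the background. The median log2 fold change was 0.05 over the members and 0.01 over all genes tested. With unadjusted p-values below 0.05 and the same size, 19 members passed, beside 7.13% of all genes tested. The groups did not overlap in 14 members, beside 5.65% of all genes tested. By class, 4 of the 49 members named for a protein, 1 of the 35 with a match and 3 of the 116 without were called, and the difference between the classes was not tested.

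The ranking leans towards the diabetic level, because 7 of the 11 wounds are diabetic. Ranked by the mean of the group medians instead, 192 of the 200 genes were the same and 3 members were called higher and 3 lower. Without the pair of wounds that stood apart, 5 were called higher and 1 lower, and 1.52% of all genes were called.

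**Figure D3:**
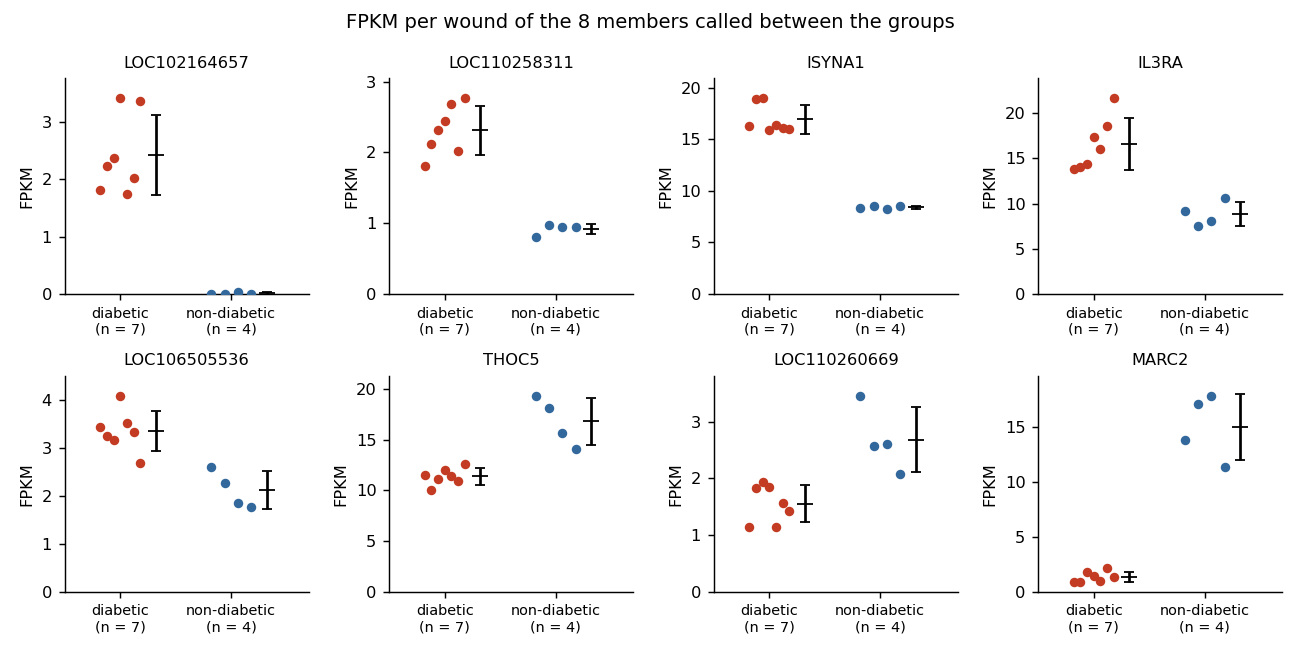
FPKM of the 8 called members in each wound (points), with the group mean and SD beside them, for 7 diabetic and 4 non-diabetic wounds. In every panel the groups do not overlap, with MARC2 at 0.841 to 2.13 FPKM in diabetic wounds and 11.4 to 17.8 FPKM in the others.

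Of the called members, 2 are named for metabolic enzymes. MARC2 (chr10:10156732-10194371), the mitochondrial amidoxime reducing component that reduces N-hydroxylated compounds, was measured at 0.841 to 2.13 FPKM with a median of 1.36 in diabetic wounds. In non-diabetic wounds it stood at 13.8, 17.0, 17.8 and 11.4 FPKM, on 1049 to 1649 reads. The group means were 1.34 ± 0.482 (SD, n = 7) and 14.98 ± 2.98 FPKM (SD, n = 4), 11.2 times higher in non-diabetic wounds. The log2 fold change was -3.09 ± 0.20 (SE), with an adjusted p of 1.24e-05 and an exact permutation p of 0.00303, the smallest that 330 splits can give. It was called in all 24 other fits, which changed the filter, pseudocount, scaling, spread or wounds. Its paralog MARC1, which overlaps it on the same strand in the annotation, averaged 2.58 and 2.87 FPKM and was not called (adjusted p = 0.778). Because the genes overlap on 1 strand, how reads were divided between them is uncertain. Adipocytes express this enzyme family: of 15 adipocyte markers, LPL, LEP and SCD were called lower and CD36 higher, with a median log2 fold change of -0.54. FABP4 at 0.92, CFD at 0.60, PNPLA2 at 0.38 and PPARG at 0.15 pointed up and were not called. The remaining adipocyte markers were negative and not called either. The summed adipocyte level was 449 to 1208 FPKM in diabetic wounds and 583 to 1132 FPKM in the others, and its part in the MARC2 difference was not tested.

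ISYNA1 (chr2:59363672-59367003), the synthase that makes inositol phosphate from glucose 6-phosphate, had the smallest standard error of the 8 called members. It lay at 15.9 to 18.997 FPKM with a median of 16.3 in diabetic wounds and at 8.33, 8.57, 8.22 and 8.53 FPKM in non-diabetic wounds. The means of 16.9 ± 1.40 (SD, n = 7) and 8.41 ± 0.166 FPKM (SD, n = 4) differed 2.01-fold. The log2 fold change was 0.96 ± 0.08 (SE), with an adjusted p of 7.44e-05 and an exact permutation p of 0.00303. Its longest frame held 583 codons.

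The other called members named for a protein are a receptor and an RNA export factor. IL3RA, the alpha chain of the interleukin 3 receptor of myeloid cells and basophils, lies on an unplaced scaffold and was 13.8 to 21.7 FPKM with a median of 16.1 in diabetic wounds, against 9.24, 7.55, 8.11 and 10.6 FPKM in non-diabetic wounds. The groups did not overlap, and the log2 fold change was 0.86 ± 0.14 (SE, adjusted p = 0.00644). Of 16 macrophage markers, CD14, MRC1, ITGAM and MARCO were called higher and 0 lower, with a median log2 fold change of 0.55. FCGR1A at -0.86 and MSR1 at -0.29 pointed the other way and were not called. LYZ, also not called, ran from 38.9 to 2263 FPKM in diabetic and from 57.9 to 1432 FPKM in non-diabetic wounds. The summed macrophage level, LYZ included, was 1778 to 3415 FPKM in diabetic wounds and 1055 to 2286 FPKM in the others. Its part in the IL3RA difference was not tested.

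THOC5 (chr14:46578973-46624237), a subunit of the THO complex that couples transcription to mRNA export, was 9.98 to 12.6 FPKM with a median of 11.4 in diabetic wounds and 19.3, 18.1, 15.7 and 14.1 FPKM in non-diabetic wounds. No wound crossed between the groups, and the log2 fold change was -0.54 ± 0.10 (SE, adjusted p = 0.0135). It became -0.48 with an adjusted p of 0.0647 without the pair of wounds that stood apart. THOC5 was also not called when non-diabetic replicate 1 or 2 was left out.

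Among the uncharacterized members, LOC102164657 (chr17:8640948-8642429) was barely detected in the non-diabetic wounds. It was read at 1.74 to 3.41 FPKM with a median of 2.22 in diabetic wounds and at 0, 0, 0.0370 and 0 FPKM in non-diabetic wounds, where a single read was counted in all 4 libraries together. The 435 reads in diabetic wounds against 1 read gave a ratio of rates of 247, with an exact 95% counting interval of 44.1 to 9785 that covers counting error only. The fitted log2 fold change was 2.48 ± 0.17 (SE, adjusted p = 1.63e-05, exact permutation p = 0.00303). The fitted size depends on the pseudocount and ran from 1.73 to 6.52 over the other fits, in all 24 of which it was called. It entered the list through the diabetic wounds alone and left it when the groups were weighted equally. Repeats masked in the assembly made up 34.3% of its longest transcript.

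LOC110258311, on an unplaced scaffold and described with a match to the mitochondrial methyltransferase-like protein METTL17, was 1.81 to 2.77 FPKM with a median of 2.32 in diabetic wounds. It was 0.809, 0.971, 0.940 and 0.944 FPKM in non-diabetic wounds. The groups were well apart, with a log2 fold change of 0.98 ± 0.11 (SE, adjusted p = 0.000927). It too left the list under equal weights.

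LOC106505536 (chr14:30570224-30573116) was 2.68 to 4.09 FPKM with a median of 3.34 in diabetic wounds and 2.60, 2.28, 1.85 and 1.77 FPKM in non-diabetic wounds, which is a narrow gap between the groups. At 0.56 ± 0.12 on the log2 scale (SE, adjusted p = 0.0283), it was called in 15 of the 24 other fits. LOC110260669 (chr5:19229897-19243843), which overlaps the homeobox gene HOXC6 on the other strand, was 1.14 to 1.93 FPKM with a median of 1.56 in diabetic wounds and 3.46, 2.57, 2.61 and 2.08 FPKM in non-diabetic wounds. At -0.63 ± 0.15 on the log2 scale (SE, adjusted p = 0.0462), it was called in 10 of the 24 other fits. Without the pair of wounds that stood apart its adjusted p was 0.133.

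A further member, LOC100737961 near the antizyme inhibitor gene AZIN1, was lower in every diabetic wound. It was 6.43 to 8.96 FPKM with a median of 8.22 in diabetic wounds and 11.3, 11.01, 11.7 and 11.6 FPKM in non-diabetic wounds. The difference of -0.50 on the log2 scale was just under the size needed for a call (adjusted p = 0.0186).

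The promoters of 4 called members are shown because they differ in base composition. Each is the RefSeq Sscrofa11.1 sequence from 250 bases before to 50 after the gene's annotated start, on the gene's strand, with every CpG in capitals. MARC2 (chr10:10156482-10156781, plus strand) has 38 CpGs and ISYNA1 (chr2:59363422-59363721, plus strand) has 28, both without masked repeats. LOC102164657 (chr17:8640698-8640997, plus strand) has 1 CpG and lies to 90.7% in masked repeats, and LOC106505536 (chr14:30573067-30573366, minus strand) has 11 and lies to 95% in masked repeats.
MARC2: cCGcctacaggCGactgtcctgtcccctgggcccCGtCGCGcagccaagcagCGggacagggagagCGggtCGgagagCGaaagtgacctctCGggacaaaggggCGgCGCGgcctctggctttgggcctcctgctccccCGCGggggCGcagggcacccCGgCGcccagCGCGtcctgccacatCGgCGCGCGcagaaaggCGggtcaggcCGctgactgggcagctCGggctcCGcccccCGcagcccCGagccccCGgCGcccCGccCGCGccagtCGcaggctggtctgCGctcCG
ISYNA1: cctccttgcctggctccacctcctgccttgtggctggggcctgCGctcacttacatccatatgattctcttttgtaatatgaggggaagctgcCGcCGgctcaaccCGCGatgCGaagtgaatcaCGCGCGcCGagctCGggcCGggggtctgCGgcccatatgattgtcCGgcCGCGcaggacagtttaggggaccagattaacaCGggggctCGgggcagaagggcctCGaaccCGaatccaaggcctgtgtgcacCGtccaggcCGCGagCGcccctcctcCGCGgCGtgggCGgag
LOC102164657: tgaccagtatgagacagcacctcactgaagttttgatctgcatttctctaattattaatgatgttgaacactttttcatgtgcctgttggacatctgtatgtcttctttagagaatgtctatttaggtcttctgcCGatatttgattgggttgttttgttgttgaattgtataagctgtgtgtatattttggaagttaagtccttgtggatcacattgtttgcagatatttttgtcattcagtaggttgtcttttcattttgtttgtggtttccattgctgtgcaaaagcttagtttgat
LOC106505536: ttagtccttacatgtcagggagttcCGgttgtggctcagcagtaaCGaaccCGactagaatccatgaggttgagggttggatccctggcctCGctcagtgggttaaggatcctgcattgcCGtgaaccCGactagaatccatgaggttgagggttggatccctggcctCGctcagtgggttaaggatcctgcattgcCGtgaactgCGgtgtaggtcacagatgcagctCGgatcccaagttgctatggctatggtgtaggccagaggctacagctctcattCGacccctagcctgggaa

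Over the whole list the promoters were richer in CpG than those of other lncRNA genes. The sets differ in class: genes named for a protein were 24.5% of the members and 0.37% of the other lncRNA genes. The promoters were not split by class, and the part of class in these shares was not tested. A GC content of at least 50% with a CpG ratio of at least 0.6 was found in 52.5% of the members' promoters, 48.8% of those of protein-coding genes and 22.99% of those of the other lncRNA genes. The letters CCGGAAG, a core bound by ETS factors, stood on either strand in 16.5% of members, 5.13% of other lncRNA genes and 8.46% of all genes. The E-box CACGTG was found in 11, 5.69 and 6.71% of the same sets. The shares were 6.00, 8.98 and 7.20% for the AP-1 letters TGANTCA, 35.5, 35.4 and 35.9% for CCAAT, and 9.50, 13.4 and 13.2% for TATAAA. These are matches of letters on either strand in windows of 300 bases. Among protein-coding genes the shares were 10.6% for ETS, 7.64% for the E-box, 6.35% for AP-1, 35.7% for CCAAT and 11.6% for TATAAA. Both CCGGAAG and CACGTG contain a CpG. The median count of CpGs was 16 in the members' promoters, 15 in those of protein-coding genes and 6 in those of other lncRNA genes. None of these motifs contains another. Neither the shares nor the part of base composition in them was tested. Of the 8 called members, 0 held the ETS letters, 1 the E-box, 2 the AP-1 letters, 4 CCAAT and 1 TATAAA. With 8 promoters these counts cannot be set apart from the shares of the list.

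The longest transcript had a median of 1831 bases in members and 1812 in the other lncRNA genes, with a median of 3 exons in each set, but the classes are mixed differently in the 2 sets. Within each class the members' median was shorter, at 3056 against 3464 bases for genes named for a protein, 1853 against 2530 for those with a match and 1390 against 1737 for those without. The GC content was 50.7 and 46.6%. Members lay close to coding genes: 70 of 198 with a protein-coding gene on their scaffold overlapped it and 72 more lay within 5 kb, whereas 10 were more than 50 kb away. Among the 5335 other lncRNA genes, 1814 overlapped, 914 lay within 5 kb and 1236 were over 50 kb away. A start within 1 kb of the start of a gene on the other strand, head to head, was found for 35 members (17.7%) and 399 others (7.48%).

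Of the members, 58 overlapped their nearest coding gene on the other strand and 12 on the same strand. Without overlap, 51 lay head to head, 49 lay on the same strand, before or after the coding gene, and 28 lay tail to tail. The libraries kept strand, but the sources used here do not give the strand setting of the counting. Reads of the 58 opposite-strand pairs may therefore not be separated. By arrangement, limma called 1 member with opposite-strand overlap, 1 with same-strand overlap, 0 head to head, 3 on the same strand and 3 tail to tail, beside 3.00% of all genes. Of the head-to-head members 2 passed without adjustment and 0 were called with voom, limma's count-based weighting, on the recovered reads. Differences between the arrangements were not tested.

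The nearest protein-coding genes of the 200 members numbered 194, of which 156 passed the filter and 6 were called higher and 2 lower. That is 5.13% of those tested, beside 3.00% of all genes. Only 1 of the 8 called members had a called neighbour. LOC100154844, which the annotation names as heparan-alpha-glucosaminide N-acetyltransferase, an enzyme of lysosomal heparan sulfate breakdown, lies 1959 bp from LOC102164657, tail to tail. It was 0.94 to 2.59 FPKM in diabetic wounds and 0.67, 0.53, 0.53 and 0.34 FPKM in non-diabetic wounds, with no overlap. Its log2 fold change was 1.06 ± 0.19 (SE, adjusted p = 0.0124).

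The other 7 neighbours of called members were not called. SSBP4 beside ISYNA1 had a log2 fold change of 0.26, the ADP/ATP carrier gene SLC25A6 beside IL3RA had 0.30, and MLXIP beside LOC106505536 had 0.01. HMOX1, the haem-degrading enzyme beside LOC110258311, had -0.07, NIPSNAP1 beside THOC5 had -0.17, HOXC6 had -0.33 and MARC1 had -0.16. Whether the member and its neighbour differed in their change was not tested.

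**Figure D4:**
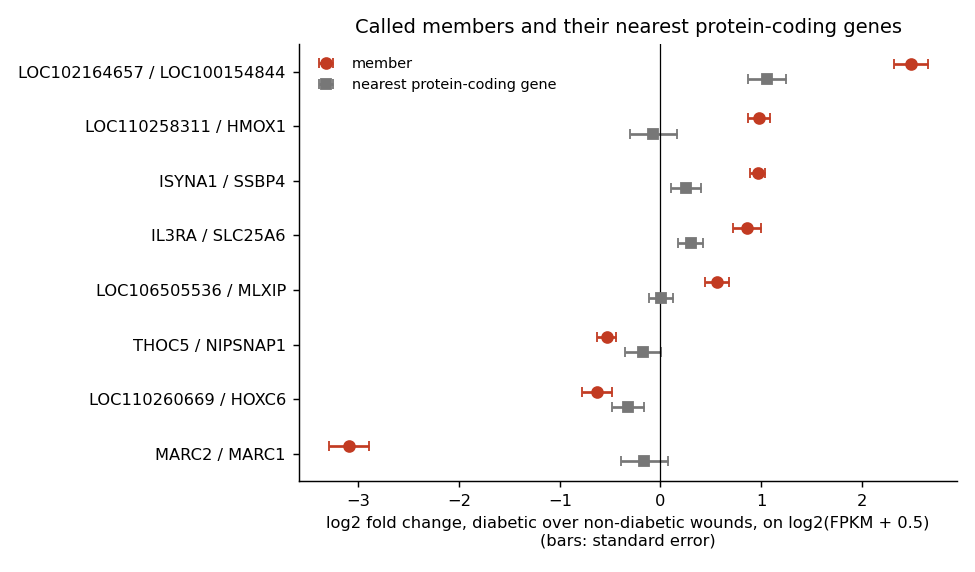
Log2 fold change (diabetic over non-diabetic wounds, on log2(FPKM + 0.5)) of the 8 called members (circles) and of their nearest protein-coding genes (squares), with standard errors as bars. LOC100154844 at 1.06 is the only neighbour that was called, and MARC1 at -0.16 lies far from MARC2 at -3.09.

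In the other direction, 7 called neighbours lay beside members that were not called. ITGAM, a macrophage and neutrophil integrin, had a log2 fold change of 1.22 ± 0.19 (SE, adjusted p = 0.00585), and LOC110259903, which overlaps it on the other strand, had 0.05 ± 0.19. Likewise DOC2B had 0.79 and its overlapping member LOC110256070 had 0.22, the transcription factor gene NFIA had 0.65 and LOC110261417 had -0.20, and ST6GALNAC2 had 0.55 and LOC100517116 had 0.12. NQO2 had 0.81, ZNFX1 had -0.77 and SNX19 had -0.54, beside members at 0.23, 0.21 and -0.17. These members were named after their values were seen.

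A small set of members followed the pair of wounds that stood apart. In 7 of the 200, the level was over 1 log2 unit lower in both diabetic replicate 4 and non-diabetic replicate 1 than in the mean of the other wounds of the group, and in none was it over 1 log2 unit higher in both. These 7 were picked by those values. LOC110260466 (chr4:96372223-96375308), whose nearest coding gene is the cornified envelope gene LELP1, was 0 FPKM in diabetic replicate 4 and 0.212 FPKM in non-diabetic replicate 1. The other wounds reached from 7.30 to 379 FPKM, which made this the most variable of the 20 most abundant members. LELP1 itself was listed at 0 in all 11 wounds.

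LCE1F, a late cornified envelope protein of the outer epidermis, was 0 FPKM in both wounds and 3.01 to 128 FPKM in the other 9. LOC110255785, which ends 218 bp from the end of the epidermal gap junction gene GJB2, was 0 and 0.938 FPKM in the pair and 5.81 to 28.1 FPKM elsewhere. GJB2 was 0.32 and 7.06 FPKM in the pair and 70.6 to 223 FPKM elsewhere. LOC100519934, described with a match to the surface protein CD24, was 5.73 and 7.43 FPKM in the pair and 25.5 to 66.5 FPKM elsewhere. LOC102163646, opposite the gene RAPGEFL1, was 0.044 and 0.049 FPKM in the pair.

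SLC7A5, the large neutral amino acid transporter, was 4.59 FPKM in diabetic replicate 4 and 13.5 to 30.3 FPKM in the other diabetic wounds, against 3.23 FPKM in non-diabetic replicate 1 and 7.27 to 9.93 FPKM in the others. Its log2 fold change between the groups was 1.21 with an adjusted p of 0.182, and 1.18 with an adjusted p of 0.0654 without the pair. LOC110257979, on an unplaced scaffold, was at 0 in both wounds. None of the 7 was called with or without the pair. The summed keratinocyte markers moved with them, as given above, and so did the summed neutrophil markers, which were 79.9 and 340 FPKM in the pair and at least 3839 FPKM in every other wound. The part of either in these levels was not tested.

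**Figure D5:**
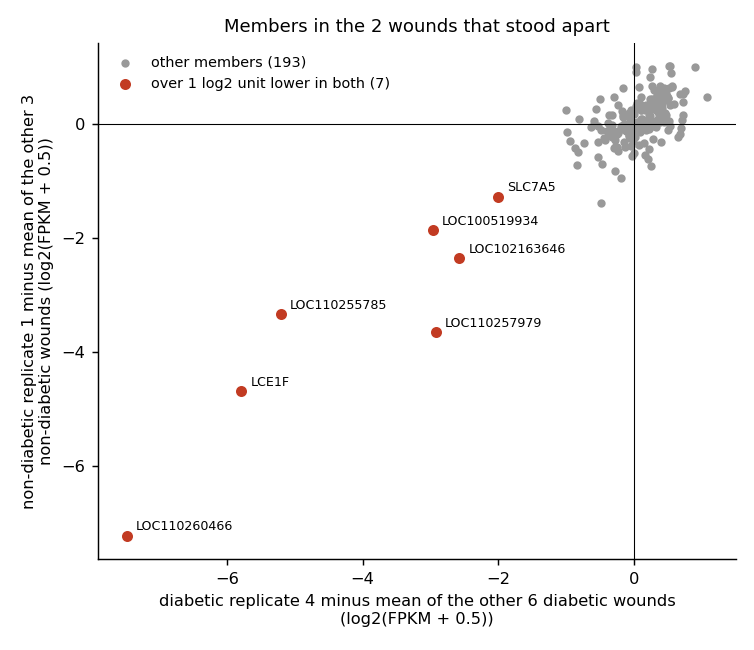
Difference of diabetic replicate 4 from the mean of the other 6 diabetic wounds (horizontal) and of non-diabetic replicate 1 from the mean of the other 3 non-diabetic wounds (vertical), in log2(FPKM + 0.5), for the 200 members. The 7 labelled members lie over 1 log2 unit below 0 on both axes.

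The coefficient of variation of FPKM within a group had a median of 22.7% over the members in diabetic and 16.7% in non-diabetic wounds, beside 20.9 and 16.7% over all genes tested. It was over 50% for 15 members in each group.

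Of the members, 4 hold microRNA genes in introns on the same strand and were named for that after their values were seen. The mature RefSeq sequences are shown because their seeds, bases 2 to 8 in capitals, group them. LOC102161115 (chr12:52420175-52424455) holds miR-195 and miR-497, which share a seed, LOC102165633 (chrX:59544249-59608630) holds miR-374a, miR-374b, miR-421 and miR-545, of which miR-374a and miR-374b share both seeds, LOC106504205 (chr9:49098669-49122513) holds miR-125b and LOC110259927 (chr3:28907959-28912005) holds miR-365.
ssc-miR-195: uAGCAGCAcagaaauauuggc
ssc-miR-497: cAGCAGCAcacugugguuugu
ssc-miR-374a-5p: uUAUAAUAcaaccugauaagug
ssc-miR-374b-5p: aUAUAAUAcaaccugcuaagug
ssc-miR-421-3p: aUCAACAGacauuaauugggcgc
ssc-miR-545-3p: aUCAACAAacauuuauugugug
ssc-miR-125b: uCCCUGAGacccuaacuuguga
ssc-miR-365-3p: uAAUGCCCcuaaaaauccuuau

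No host was called by limma, 1 passed without adjustment, LOC102161115, and none was called with voom on recovered reads. LOC102165633 was 1.44 to 2.60 FPKM with a median of 2.16 in diabetic wounds and 3.48, 2.38, 3.37 and 2.99 FPKM in non-diabetic wounds, a slight overlap, and differed by -0.48 on the log2 scale (adjusted p = 0.0958). LOC102161115 was 1.23 to 3.11 FPKM with a median of 2.42 in diabetic wounds and 5.04, 4.05, 2.23 and 3.24 FPKM in non-diabetic wounds, at -0.53 (adjusted p = 0.242). LOC106504205 was 2.21 to 4.42 FPKM in diabetic wounds and 2.50 to 3.56 FPKM in non-diabetic wounds. LOC110259927, which rested on 8 to 38 reads in each diabetic wound and 8 to 20 in the others, differed by 0.40 (adjusted p = 0.407). Mature microRNAs are not captured by this kind of library, and the rows of the 8 hosted microRNA genes held at most 12 reads in any wound.

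Hosts are cut by the nuclear enzyme DROSHA with its partner DGCR8. Among 13 genes of microRNA processing, DROSHA alone was called. It was 3.94 to 5.09 FPKM with a median of 4.44 in diabetic wounds and 7.74 to 9.49 FPKM in non-diabetic wounds, with a log2 fold change of -0.81 ± 0.09 (SE, adjusted p = 0.000913), and no overlap between the groups. DGCR8 averaged 18.7 and 18.3 FPKM. The list's median log2 fold change was -0.15, beside 0.01 over all genes tested.

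Proteins that bind or remove nuclear RNAs showed no calls by limma. The numbers tested were 15 paraspeckle proteins, 19 nuclear speckle proteins, 18 genes of the nuclear exosome, 15 factors of nonsense-mediated decay and 13 partners of X inactivation, one of them HNRNPU, itself a member. Without adjustment 1 exosome gene and none of the others passed, and voom called none in these 5 lists. Their median log2 fold changes were 0.04, 0.01, 0.06, -0.01 and 0.01. HNRNPK, an RNA-binding protein of paraspeckles, averaged 109 FPKM in the diabetic group and 109 FPKM in the other. HNRNPU was 31.2 to 42.9 FPKM in the diabetic group and 34.0 to 36.0 FPKM in the other.

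Among cell type markers, 4 of 12 B and plasma cell genes (POU2AF1, MZB1, CD79A and CD79B) and 1 of 22 keratinocyte genes (KRT15) were called higher. With voom 3 of the B and plasma cell genes and none of the keratinocyte genes were called. No gene was called by limma or voom among 15 fibroblast, 14 endothelial, 9 neutrophil, 14 T and NK cell, 5 skeletal muscle and 4 melanocyte markers that were tested. Without adjustment 2 fibroblast, 2 T and NK cell and 1 melanocyte gene passed. Of the 17 skeletal muscle markers present, 5 passed the filter on low values. Their summed level over all 17 reached 2755 FPKM in 1 diabetic wound, which was not replicate 4 (9.02 FPKM). It was at most 7.94 FPKM in non-diabetic wounds. The muscle gene ACTA1 had a median of 0 and a maximum of 957 FPKM in diabetic wounds.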

How the data were processed

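The authors trimmed reads of polyadenylated, strand-marked libraries with fastp, aligned them by HISAT2 2.2.1 to Sscrofa11.1, ran StringTie 2.2.3 for assembly, counted reads with featureCounts 2.0.6 and tested counts with DESeq2. The strand setting of the counting is not given in the sources used here. The deposited values are FPKM for 30376 genes. Multiplied by gene length they were whole reads for 100% of values within 0.05 reads, which gave the depth of each wound, and 26 symbols turned into dates were repaired.

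Genes with at least 0.5 FPKM in at least 4 wounds (13956) were compared on log2(FPKM + 0.5) with limma 3.58.1 (lmFit and trended eBayes), and p-values were adjusted over all of them by Benjamini-Hochberg. A call needed an adjusted p below 0.05 and a log2 fold change above 0.5 in size. Fold changes on this scale understate the change of low genes. Exact permutation tests were two-sided over all 330 splits into 7 and 4 wounds. The replicate numbers do not pair wounds, which came from separate animals. Nearest genes, reading frames, repeats and promoters were read from the RefSeq genome and annotation of the same build with pysam 0.24.0. The test was checked on simulated data.

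The members and the 16 gene lists were chosen with earlier results of these data known. Named are the 20 most abundant members, all called members, members on a list of known lncRNA names, the nearest coding genes of these, the genes around rank 200, and the called and most abundant genes of each list, but of the neighbours and the abundant list genes only some are printed. An item that this rule would name is not reported here. MicroRNA hosts, the 7 members low in the pair of wounds that stood apart, neighbours called beside uncalled members and LOC100737961 were named with their values in view. The alternatives varied the pseudocount, filter, scaling, spread estimate, weights, block, wounds and member rule. Fits were made with R 4.3.3 and tables with Python 3.11.15.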

Additional observations from a re-analysis of the deposited data

Results flagged for a closer look

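In 38 members given one by one, the highest and lowest wound of each group (76 groups) was compared with the spread of its group. A wound lay far from the others in 3 groups, and chance flags about 1 in 20 groups. LCE1F was 128 FPKM in diabetic replicate 6, with the next wound at 31.8 FPKM. LOC110257979 was 13.03 FPKM in diabetic replicate 3, with the next wound at 3.27 FPKM. LOC102164657 was 0.0370 FPKM in non-diabetic replicate 3, which is 1 read, with the other 3 non-diabetic wounds at 0. Beside such zeros any value above 0 is flagged, so this flag carries no information about the wound.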

How the results depend on the processing

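MARC2 and LOC102164657 were called in all 24 other fits, and ISYNA1, IL3RA and LOC110258311 in 23, all but the one with a replicate block. THOC5 was called in 19, LOC106505536 in 15 and LOC110260669 in 10. Over the 38 members given singly, 31 calls were lost and 12 gained in 912 comparisons with other fits. None of the 8 called members changed its sign. Some uncalled members did, most often LOC102158335, in 6 of the 24 fits. With the replicate block 1 member was called higher and 1 lower, and 16 genes in all. Wounds of the same number did not deviate together (correlations from -0.483 to 0.215). Library weights gave 9 higher and 7 lower, with 5.89% of all genes called. Leaving out 1 wound at a time gave 4 to 6 higher and 1 to 5 lower, with 1 lower without non-diabetic replicate 1 and 5 without diabetic replicate 4, and called 209 to 482 of all 13956 genes. Without the pair that stood apart, 1 was lower. Equal weights for the groups in the ranking gave 3 higher. The first 100 members held 2 higher and 1 lower, and the first 400 held 6 lower. Without members that overlap a coding gene, 1 was lower, and without members named for a protein, an alternative chosen after seeing the data, 3 were higher and 1 lower. The counts of called neighbours, 1 and 0, were the same by the nearest start. The causes were not tested. Members near 1.6 FPKM rest on few reads where the gene is short, and with 1 animal a group no fit here separates diabetes from animal.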
